A study of Rattus norvegicus with 6 samples.

Results

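The natriuretic peptide system was followed in rat myocardium through 7 genes, chosen by symbol in the deposited table: the ligands Nppa, Nppb and Nppc, the protease Corin, and the receptors Npr1, Npr2 and Npr3. Each symbol stood on 1 of the 30452 gene entries. The samples were myocardial tissue of male WT rats, 3 sham and 3 with myocardial ischemia/reperfusion injury (MI/RI, called I/R in the labels). MI/RI was made by tying the left anterior descending coronary artery for 30 min and releasing it, with the heart taken 6 h later, and the sham labels carry the same times. Strain, age, the part of the heart sampled and any pooling of animals are not given in the sources used here.

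Atrial natriuretic peptide (from Nppa) and B-type natriuretic peptide (from Nppb) are hormones that cardiac myocytes release when the wall is stretched, and they lower blood pressure by promoting salt and water excretion and by relaxing vessels. Nppa is abundant in adult atria and low in adult ventricles, where it returns with load, while Nppb responds quickly to stretch and injury. Both act on the receptor guanylyl cyclase Npr1, C-type natriuretic peptide (from Nppc) acts on its relative Npr2, and Npr3 binds all of these peptides and removes them from the circulation.

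Values are FPKM, fragments per unit of gene length and of library size. Summed FPKM was 894902 to 928941 per sham library and 731063 to 825490 per MI/RI library, and the 13 mRNAs encoded by mitochondrial DNA took 80.1% to 86.2% and 61.8% to 71.5% of it. Values of weakly expressed genes moved in whole steps, as fragment counts do (tolerance 0.001), in 3874 of 3874 genes examined. These steps put the depth of the MI/RI libraries at 0.873 to 0.935 of that of sham replicate 1, against 1.18 and 1.14 for sham replicates 2 and 3. They also gave the fragments behind each value below. Since FPKM is a share of the library, changes below are relative to the other genes: the median log2 difference of MI/RI over sham was 0.29 over the 10942 genes with a mean of at least 0.5 FPKM, all of which were tested with limma on log2(FPKM + 0.1). Fewer cells of a type and less RNA per cell cannot be told apart in such tissue samples.

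Nppa and Nppb lie next to each other on rat chromosome 5 with 0 annotated genes between them. The stretches upstream of their start sites are shown because these 2 ligands had the highest mean levels of the family. Both are from RefSeq on build GRCr8, plus strand, read 5′ to 3′. Nppa is chr5:163711934-163712183 and Nppb is chr5:163699758-163699954, which stops where a longer annotated Nppb transcript begins. Capitals mark letters searched on both strands, namely GATAA (bound by GATA factors) and CATTCC or its complement GGAATG (the M-CAT element of TEAD factors). AAGTG (an Nkx2-5 site) and TATAAA or TTTATA (the letters of a TATA box) were marked as well. TATAAA of Nppa lay 39 to 34 bases before the start site that ends its window. TTTATA of Nppb lay 208 to 203 bases before its own.
Nppa: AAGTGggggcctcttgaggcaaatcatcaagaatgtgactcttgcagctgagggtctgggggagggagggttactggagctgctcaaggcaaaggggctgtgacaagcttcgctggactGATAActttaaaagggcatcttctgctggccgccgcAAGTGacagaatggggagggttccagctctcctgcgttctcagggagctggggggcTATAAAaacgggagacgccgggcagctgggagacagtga
Nppb: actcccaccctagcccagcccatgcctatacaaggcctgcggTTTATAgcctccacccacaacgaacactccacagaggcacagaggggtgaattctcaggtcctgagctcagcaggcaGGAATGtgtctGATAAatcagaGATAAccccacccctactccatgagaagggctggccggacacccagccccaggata
The 250 bases upstream of Nppa held GATAA 1 time, AAGTG 2 times and TATAAA 1 time, with neither CATTCC nor an exact CArG box. The CArG box, the site of serum response factor, was searched only in its strict form (CC, letters A or T, then GG, 10 in all). Looser forms were not searched. The 250 bases upstream of Nppb held GATAA 3 times, of which 2 are whole in the printed stretch, with CATTCC 1 time, TATAAA 1 time, and neither AAGTG nor a CArG box. Over 27457 rat promoter windows of the same length, 23.2% held GATAA, 11.8% CATTCC, 40.6% AAGTG, 13.1% TATAAA and 1.5% a CArG box. The windows of Nppc, Npr1, Npr3 and Corin held none of these except 1 TATAAA at Nppc. A match of letters is a description and not a bound site. Npr2 had no entry.

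None of the 6 members that passed the filter was called between sham and MI/RI at an adjusted p of 0.05 (limma), where 32.9% of all genes tested were called, 25.5% higher and 7.36% lower. At an unadjusted p of 0.05 there was 1, Npr2, against 44.7% of all genes. The median log2 difference of the tested members was -0.59, and 4 of the 6 values were below 0, beside the median of 0.29 over all genes. The groups did not overlap for 2 members, Npr1 and Npr2, both lower in MI/RI, a pattern seen in 13% of all genes. For Nppa, Nppb, Npr3 and Corin the groups overlapped.

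**Figure D1:**
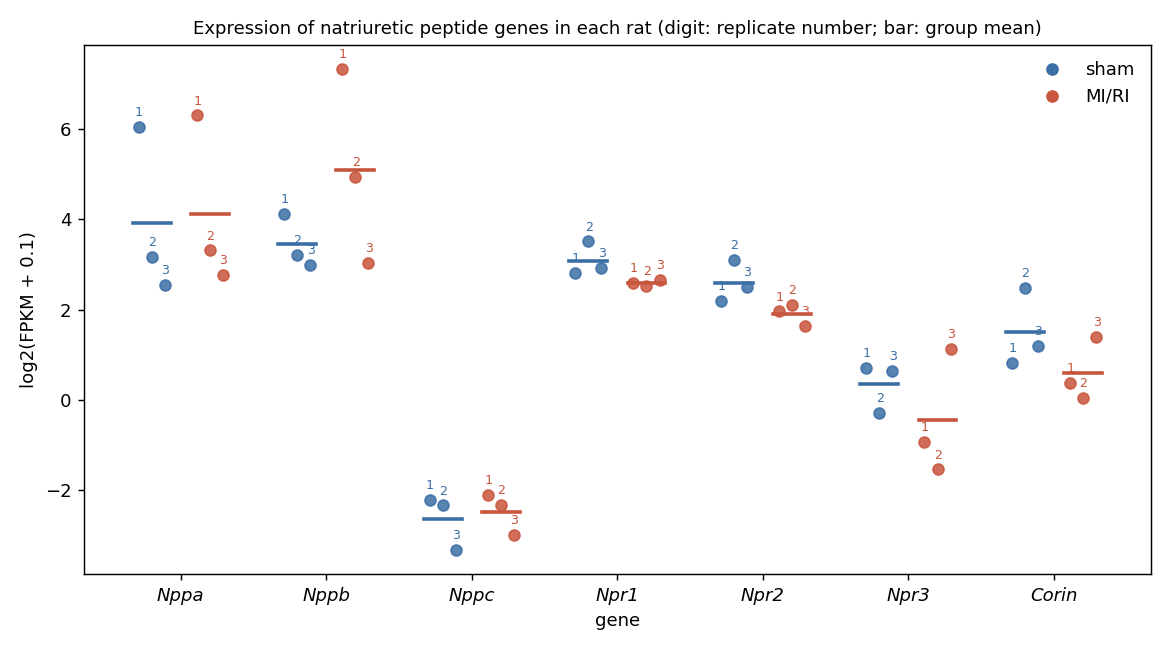
Level of each member in each rat as log2(FPKM + 0.1), with digits for the replicate number, short lines for group means, sham on the left and MI/RI on the right of each gene. Nppa is high in replicate 1 of both groups, Nppb in MI/RI replicates 1 and 2, and only Npr1 and Npr2 separate the groups among the 6 tested members.

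Nppa, the atrial natriuretic peptide gene (ENSRNOG00000008176), was at 65.3, 8.82 and 5.71 FPKM in sham replicates 1 to 3 and at 78.4, 9.81 and 6.69 FPKM in MI/RI replicates 1 to 3. These rested on 3324, 530 and 330 fragments in sham and 3482, 467 and 300 in MI/RI. The first replicate of each group was far above its other rats, by a highest-to-lowest ratio of 11.4 in sham and 11.7 in MI/RI, and the groups overlapped throughout. Group means were 26.6 ± 33.5 FPKM in sham and 31.6 ± 40.5 FPKM in MI/RI (SD, n = 3). The log2 difference was 0.21 (SE 1.0, 95% interval -2.02 to 2.45, limma adjusted p = 0.89, exact permutation p = 0.7). It fell to -0.036 after centring on the median gene, to -0.38 with quantile normalization and to -0.56 when scaled to genes that are not mitochondrially encoded, so no direction is given. Rats of the same number differed by 0.26, 0.15 and 0.22, and with the replicate number as a block the interval narrowed to -0.23 to 0.66 (adjusted p = 0.43, limma).

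Nppb, the B-type natriuretic peptide gene (ENSRNOG00000008141), was at 17.3, 9.12 and 7.87 FPKM in sham and at 160.4, 30.4 and 8.09 FPKM in MI/RI. Fragments behind these were 757, 471 and 391 in sham and 6123, 1243 and 312 in MI/RI. MI/RI replicates 1 and 2 stood above every sham rat, while MI/RI replicate 3 lay inside the sham range, and the MI/RI rats spanned a 19.8-fold range. The means were 11.4 ± 5.12 FPKM in sham and 66.3 ± 82.3 FPKM in MI/RI (SD, n = 3). On the log2 scale MI/RI was 1.66 higher (SE 0.85, 95% interval -0.24 to 3.55), which did not pass (limma adjusted p = 0.16, exact permutation p = 0.3). With the replicate number as a block the same difference passed (adjusted p = 0.018, limma, SE 0.46), as 3085 genes or 28.2% did in that direction in the blocked fit. The same-numbered differences were 3.20, 1.73 and 0.040. Without MI/RI replicate 3 the difference was 2.69 (adjusted p = 0.013, limma), and without MI/RI replicate 1 it was 0.54 (adjusted p = 0.49, limma).

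Within each rat, the log2 ratio of Nppb to Nppa does not depend on what the library was scaled to. It was -1.91, 0.048 and 0.46 in sham and 1.03, 1.62 and 0.27 in MI/RI. Nppa exceeded Nppb in sham replicate 1, and Nppb exceeded Nppa in the other 5 rats. The mean ratio was -0.47 ± 1.26 in sham and 0.98 ± 0.68 in MI/RI (SD, n = 3), a difference of 1.44 that the exact permutation test did not separate (p = 0.2, 0.48 adjusted over 8 ratios). Without sham replicate 1 the difference was 0.72, and over the loss of each rat it ran from 0.72 to 1.91.

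Genes of cardiac myocytes took a larger share of the MI/RI libraries. Of the 8 genes on the cardiomyocyte list 6 were called higher, from Tnni3 (troponin I, 1.92) and Tnnt2 (troponin T, 2.28) to Myh6 (alpha myosin heavy chain, 2.68) and Actc1 (cardiac actin, 3.79 on the log2 scale), with a median of 2.37. The calls numbered 6 as well under median centring, quantile normalization and scaling without the mitochondrial mRNAs. The summed level of the list was 2801 to 8372 FPKM in sham and 19093 to 29294 FPKM in MI/RI. Relative to the mean of this list, Nppa was at -2.01, -3.86 and -4.07 in sham and at -3.53, -5.85 and -6.37 in MI/RI on the log2 scale, a difference of -1.93 (exact permutation p = 0.3). Rats of the same number differed by -1.52, -1.99 and -2.29, below 0 in 3 of 3, and the exact test on these pairs gave p = 0.25, the smallest it allows. Nppb against the same list was at -3.92, -3.81 and -3.62 in sham and at -2.50, -4.23 and -6.10 in MI/RI. The 3 sham rats were close together here (-3.78 ± 0.15) and the MI/RI rats lay on both sides of them (-4.27 ± 1.80), for a difference of -0.49 (exact permutation p = 0.7).

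**Figure D2:**
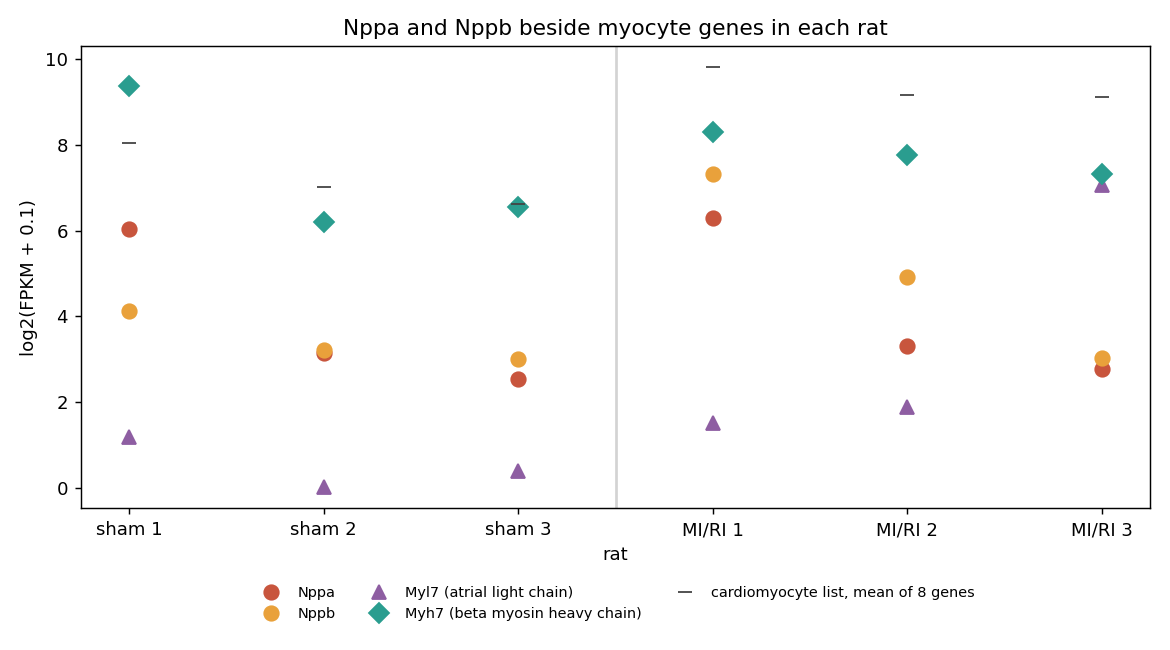
Nppa, Nppb, Myl7, Myh7 and the mean of 8 cardiomyocyte genes in each rat, as log2(FPKM + 0.1), with the 3 sham rats left and the 3 MI/RI rats right of the grey line. Nppa is highest in replicate 1 of each group. Myl7 is highest in MI/RI replicate 3, where Nppa and Nppb are at their lowest of the MI/RI rats. Among the sham rats Myl7 is highest in replicate 1, as Nppa is.

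Because atrial tissue is rich in Nppa, the atrial list was read beside it. Myl7, the atrial regulatory light chain, was at 2.16, 0.905 and 1.20 FPKM in sham and at 2.73, 3.57 and 133.2 FPKM in MI/RI (adjusted p = 0.080, limma). Its high value was in MI/RI replicate 3, the MI/RI rat with the lowest Nppa. Among the sham rats it was highest in replicate 1, the sham rat with the highest Nppa. Myl4, the atrial essential light chain, was at 3.80, 1.01 and 1.03 FPKM in sham and 1.90, 2.77 and 3.49 FPKM in MI/RI, so its highest value fell in sham replicate 1. Sln, which encodes the calcium pump regulator sarcolipin, was higher in MI/RI (1.60, adjusted p = 0.024, limma), as was Dkk3, a secreted glycoprotein (0.97, adjusted p = 0.031, limma). The gap junction gene Gja5 and the potassium channel gene Kcnj3 were not called, at -0.46 and 1.17. Bmp10 and Mybphl were under the filter, and Mybphl was listed at 0 in 5 of 6 rats. The summed list was 7.10 to 16.2 FPKM in sham and 16.7 to 154.0 FPKM in MI/RI, and 2 of its 6 tested genes were called higher (0 after median centring). The ventricular list summed to 896 to 3764 FPKM and 6040 to 7159 FPKM, with 2 of 4 genes called higher, Myl3 (2.76) and Myl2 (1.83). Whether the mix of chambers sampled had a part in the Nppa values was not tested.

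Nppc, which encodes C-type natriuretic peptide (ENSRNOG00000018854), a ligand made mainly outside the myocyte, was near the limit of detection. It was at 0.116, 0.0983 and 0 FPKM in sham and at 0.133, 0.0993 and 0.0264 FPKM in MI/RI, from 5, 5 and 0 fragments against 5, 4 and 1. Each group thus held 10 fragments in all. Sham replicate 3 held none, and 3 fragments there would have been 0.0613 FPKM. The exact Poisson 95% interval for 0 fragments reached 3.69 fragments (counting error only). No difference was detectable at this depth (log2 difference 0.15, exact permutation p = 0.6).

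Corin is the membrane serine protease of myocytes that cuts pro-atrial natriuretic peptide to its active form. The gene (ENSRNOG00000002302) was at 1.67, 5.47 and 2.20 FPKM in sham and at 1.20, 0.935 and 2.51 FPKM in MI/RI, from 262, 1011 and 391 fragments and 164, 137 and 347 fragments. Sham replicate 2 was the highest, MI/RI replicates 1 and 2 were under every sham rat, and MI/RI replicate 3 was above sham replicates 1 and 3. Means were 3.11 ± 2.06 and 1.55 ± 0.845 FPKM (SD, n = 3), a log2 difference of -0.90 (SE 0.46, 95% interval -1.92 to 0.13, limma adjusted p = 0.16, exact permutation p = 0.3). Scaled to genes that are not mitochondrially encoded it was -1.64 and passed (adjusted p = 0.018, limma), as 26.1% of all genes did in that direction. Against the cardiomyocyte list, Corin was at -7.21, -4.54 and -5.41 in sham and at -9.44, -9.11 and -7.75 in MI/RI on the log2 scale. The groups did not overlap on this measure, and the difference of -3.04 had the smallest exact permutation p that 3 rats against 3 allow (p = 0.1, 0.4 adjusted over 8 ratios). The myocyte genes themselves were higher in MI/RI.

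Of the other genes that process or clear the peptides, 7 were listed and 5 tested. Of these 1 was called higher and 0 lower, beside 25.5% and 7.36% of all genes tested, with a median of 0.60. With the replicate block 3 were higher, and with quantile normalization or without the mitochondrial mRNAs 0 were. That gene was Furin, the proprotein convertase that cuts pro-B-type natriuretic peptide. It was at 5.61, 5.74 and 3.81 FPKM in sham and at 10.4, 10.2 and 8.44 FPKM in MI/RI, and the groups did not overlap (log2 difference 0.94, SE 0.24, limma adjusted p = 0.016). Furin did not pass without sham replicate 3 (adjusted p = 0.071, limma) or without MI/RI replicate 2 (adjusted p = 0.0503, limma). Pcsk6, which activates Corin, was at 8.35, 6.78 and 6.08 FPKM in sham and 18.9, 9.97 and 9.36 FPKM in MI/RI and was not called (0.78, adjusted p = 0.071, limma), nor were Ece1, Ide and Dpp4, peptidases that can cut natriuretic peptides or other hormones. Mme, the peptidase neprilysin, was under the filter, and Ostn, whose product osteocrin occupies the clearance receptor, was listed at 0 in all 6 rats.

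Npr1 (ENSRNOG00000014684), the guanylyl cyclase receptor of the atrial and B-type peptides, was at 6.88, 11.3 and 7.49 FPKM in sham and at 5.92, 5.65 and 6.17 FPKM in MI/RI. It rested on 1190, 2303 and 1470 fragments in sham and 894, 914 and 941 in MI/RI. Every MI/RI rat was under every sham rat, and the MI/RI rats were close together (8.55 ± 2.38 against 5.92 ± 0.261 FPKM, SD, n = 3). The log2 difference was -0.49 (SE 0.24, 95% interval -1.03 to 0.054) and did not pass (limma adjusted p = 0.15, exact permutation p = 0.1, the smallest possible). After centring on the median gene it was -0.74 (adjusted p = 0.024, limma), where 14.2% of all genes were called lower.

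Npr2 (ENSRNOG00000015991), the guanylyl cyclase receptor of C-type natriuretic peptide, was at 4.45, 8.50 and 5.54 FPKM in sham and at 3.78, 4.20 and 3.03 FPKM in MI/RI. Fragments were 672, 1515 and 949 against 498, 592 and 403. The groups did not overlap, and sham replicate 2 was the highest rat, as for Npr1 and Corin. Means were 6.17 ± 2.10 and 3.67 ± 0.590 FPKM (SD, n = 3). The log2 difference of -0.69 (SE 0.28, 95% interval -1.31 to -0.078) missed the threshold (limma adjusted p = 0.079, exact permutation p = 0.1). It passed with the replicate number as a block (adjusted p = 0.047, limma), in which 8.18% of all genes were called lower, and without sham replicate 1 (-0.90, adjusted p = 0.040, limma). Without sham replicate 2 the difference was -0.44 and did not pass (adjusted p = 0.22, limma). The log2 ratio of Npr2 to Npr1 was -0.62, -0.40 and -0.43 in sham and -0.63, -0.42 and -1.0 in MI/RI, which overlapped (difference -0.20, exact permutation p = 0.3).

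Npr3 (ENSRNOG00000019184), the clearance receptor, which lacks the cyclase, was at 1.53, 0.724 and 1.46 FPKM in sham and at 0.428, 0.245 and 2.08 FPKM in MI/RI. The MI/RI rats gave both the lowest values, from 31 and 19 fragments, and the highest, from 152 fragments. Counting error (exact Poisson 95% interval) put these at 21.1 to 44.0, 11.4 to 29.7 and 128.8 to 178.2 fragments, intervals that leave out the noise of sampling and preparation. Means were 1.24 ± 0.447 and 0.916 ± 1.01 FPKM (SD, n = 3), and the log2 difference of -0.80 did not pass (SE 0.61, 95% interval -2.16 to 0.56, limma adjusted p = 0.33, exact permutation p = 0.4). Without MI/RI replicate 3 it was -1.59 (adjusted p = 0.026, limma), and without MI/RI replicate 2 it was -0.26 (adjusted p = 0.76, limma). The log2 ratio of the clearance receptor to Npr1 was -2.10, -3.79 and -2.28 in sham and -3.51, -4.06 and -1.53 in MI/RI, again on both sides (difference -0.31, exact permutation p = 0.9).

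Npr1 and Npr3 are known from endothelial and endocardial cells. The 7 endothelial genes gave 0 calls in either direction (6 lower with quantile normalization and 4 without the mitochondrial mRNAs), with a median of -0.21 and summed levels of 172.9 to 227 FPKM in sham and 170.4 to 213 FPKM in MI/RI. Kdr was higher and Tek lower in MI/RI without overlap, and neither was called (0.72 and -0.55, adjusted p = 0.0501 and 0.081, limma). This list did not move as one. Against the mean of that list, Npr1 was at -1.54, -1.18 and -1.41 in sham and at -2.01, -1.89 and -1.69 in MI/RI on the log2 scale. The groups did not overlap here either, with a difference of -0.49 (exact permutation p = 0.1, 0.4 adjusted over 8 ratios). Npr3 against the same list differed by -0.80 and overlapped (exact permutation p = 0.4), with -0.27 without MI/RI replicate 2 and -1.64 without MI/RI replicate 3. The 5 endocardial genes summed to 27.3 to 47.8 FPKM in sham and 10.5 to 31.5 FPKM in MI/RI, with 4 tested and 0 called. Of these Plvap was at 0.437, 1.62 and 5.07 FPKM and Cytl1 at 7.29, 14.2 and 24.2 FPKM in MI/RI replicates 1 to 3, both highest of the MI/RI rats in the one with the highest Npr3. The other 3 genes of the list, Nfatc1, Tmem108 and Nrg1, were highest of the MI/RI rats in replicate 1, so the list did not move as one. These genes were picked after their values were seen, and the part of endocardial cells in the Npr3 values was not tested. Adipocytes also express Npr3. The summed adipocyte list was 541 to 1329 FPKM in sham and 255 to 569 FPKM in MI/RI, nearly all of it from Fabp4, which capillary endothelium also expresses, while the defining genes Adipoq and Plin1 were at most 1.72 and 0.306 FPKM. The part of adipocytes in the Npr3 values was not tested.

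**Figure D3:**
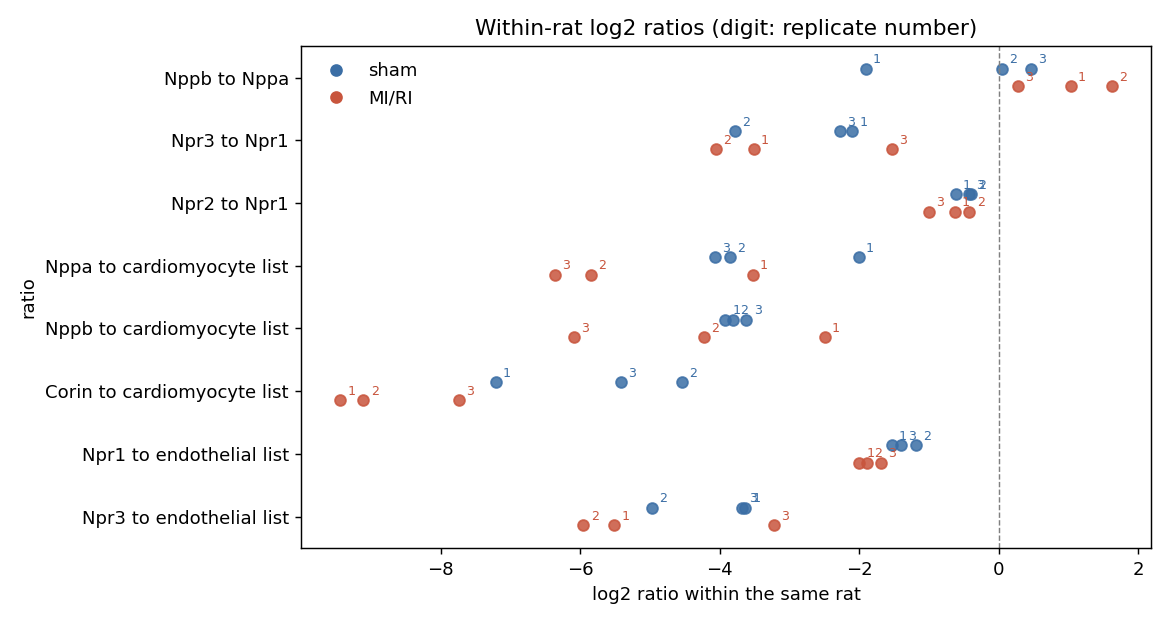
The 8 within-rat log2 ratios of the members to each other and to the cardiomyocyte and endothelial lists, with 1 point per rat and digits for the replicate number. Corin against the cardiomyocyte list and Npr1 against the endothelial list are the 2 ratios whose groups do not overlap.

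In sham the mean levels per length ran from Nppa through Nppb, Npr1, Npr2, Corin and Npr3 to Nppc. The place of Nppa rested on sham replicate 1, since in sham replicates 2 and 3 both Nppb and Npr1 exceeded it. Neighbours overlapped down to Npr2 and Corin, while Corin stood above Npr3 and Npr3 above Nppc in every rat. In MI/RI Nppb came first and Nppa next, which overlapped, and then Npr1, Npr2 and Corin were each apart from the gene before. Corin and Npr3 overlapped there, and Nppc was again below all others.

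Downstream of the receptors, cyclic GMP acts through its kinases and is broken down by phosphodiesterases. Of 17 symbols listed for this step 12 were matched and 9 tested. Of these 2 were called higher and 1 lower, beside 25.5% and 7.36% of all genes tested, with a median of -0.10. Prkg1, Gucy1a2, Mrvi1, Pln and Trpc6 had no matching symbol, and Prkg2 was under the filter, so no kinase of the list was tested. Without the mitochondrial mRNAs 1 was higher and 5 lower. Rgs2, which restrains G protein signaling and is a target of cyclic GMP-dependent kinase, was at 1.11, 1.73 and 3.16 FPKM in sham and 11.3, 6.65 and 7.90 FPKM in MI/RI (log2 difference 2.14, SE 0.36, limma adjusted p = 0.0040). Vasp, a cytoskeletal substrate of the same kinase, was also higher (0.97, adjusted p = 0.014, limma). Gucy1a1, a subunit of the nitric oxide receptor that also makes cyclic GMP, was at 4.83, 6.87 and 6.34 FPKM in sham and 1.57, 2.02 and 2.77 FPKM in MI/RI, with no overlap (-1.48, SE 0.26, limma adjusted p = 0.0046).

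Of 17 transcription factors and cofactors known from the Nppa and Nppb promoters, 14 were tested, 5 were called higher and 1 lower, with a median of 0.52. Of all genes tested 25.5% were called higher and 7.36% lower, with a median of 0.29. Without the mitochondrial mRNAs 2 of these factors were higher and 3 lower. The higher calls fell to 2 without sham replicate 3 and to 3 without MI/RI replicate 1 or without MI/RI replicate 3, and the median was 0.26 and 0.24 without sham replicate 3 and MI/RI replicate 1. Nkx2-5, the cardiac homeobox factor whose letters occur upstream of Nppa, was at 9.62, 3.55 and 3.43 FPKM in sham and 52.8, 20.2 and 21.0 FPKM in MI/RI (2.50, SE 0.47, limma adjusted p = 0.0054). Srf, serum response factor, was higher by 2.08 (adjusted p = 0.0017, limma). Gata4, whose family binds GATAA, was higher by 1.13 at an adjusted p of 0.050 (limma), just under the threshold, and Nfatc4, a calcineurin-dependent factor, was lower by -0.76 (adjusted p = 0.034, limma). In each group replicate 1 had the highest Nkx2-5, as it had the highest Nppa. Replicate 1 also had the highest mean of the cardiomyocyte list in each group (8.04 in sham and 9.82 in MI/RI, log2 scale). The pattern was thus not particular to Nkx2-5.

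Genes known to rise with load and stretch of the heart, as Nppa and Nppb do, were listed beside them: 10 of 11 were called higher and 0 lower, with a median of 2.41. Median centring, quantile normalization and scaling without the mitochondrial mRNAs each left 9 higher. The median was close to the 2.37 of the cardiomyocyte list, and centred on that list 1 load gene was higher and 2 were lower, with a median of 0.26. The part of the myocyte genes' higher share in these values was not tested. The highest were Ccn1, a matrix protein gene, at 8.09, 5.73 and 6.73 FPKM in sham and 125.9, 95.8 and 32.5 FPKM in MI/RI (3.41, SE 0.44, limma adjusted p = 0.0022), and Tnfrsf12a, the receptor of TWEAK (3.11, adjusted p = 0.0026, limma). The lowest called were Ccn2, connective tissue growth factor (1.04, adjusted p = 0.041, limma), and Xirp2, a protein of myocyte junctions (1.90, adjusted p = 0.0035, limma). The gene not called was Myh7, beta myosin heavy chain, at 667, 73.2 and 94.0 FPKM in sham and 318, 218 and 159.9 FPKM in MI/RI (0.42, adjusted p = 0.67, limma). Like Nppa, Myh7 was highest in replicate 1 of both groups, as was the mean of the cardiomyocyte list.

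Genes with a pattern near that of each member over the 6 rats were found by Euclidean distance between centred log2 values, as a description. For Nppa they were Ptgds, which makes prostaglandin D2 (distance 1.46), Pllp (1.61) and Orm1, an acute phase protein (2.10), where the median gene was at 3.78. For Nppb they were Cyp11a1, a steroid synthesis enzyme (1.45), Steap2 (1.48) and Bdh1, an enzyme of ketone metabolism (1.67), with a median gene at 3.51. Nppa and Nppb were 2.69 apart. Npr1 was nearest to Pkd1, the polycystin 1 gene (0.125), Sidt2 (0.164) and Gpatch2 (0.184), and Npr2 to Parp9 (0.172), Ajuba (0.183) and Arfgef1 (0.207). Npr1 and Npr2 were 0.51 apart, against 1.32 for the median gene from Npr1. Npr3 was nearest to Kcnn4, a calcium-activated potassium channel (0.639), Akr1b8 (0.755) and Slc27a3 (0.940), and Corin to Eya2 (0.728), Adamts19 (0.734) and Nt5dc1 (0.768). The distances rest on 6 points, 1 per rat.

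The remaining marker lists are given beside the 32.9% of all genes tested that were called, 25.5% higher and 7.36% lower. In the fibroblast list 2 of 7 genes were called higher, Tcf21 (1.42) and Col1a1 (0.91). In the smooth muscle and pericyte list Rgs5 was called higher (1.37) and Kcnj8 (-0.94) and Pdgfrb (-0.68) lower, of 6 tested. In the leukocyte list S100a9 (1.89) and S100a8 (1.60) were called higher of 6 tested. Ptprc was lower in MI/RI without overlap and was not called (-0.93, adjusted p = 0.067, limma). Csf3r, Lyz2 and Cd68 were not called either, at 1.03, 0.41 and 0.30, so the list did not move as one. The epicardial, adipocyte and red blood cell lists had 1, 1 and 2 genes tested and 0 called. With quantile normalization 0 genes of the fibroblast, smooth muscle and leukocyte lists were called higher.

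**Figure D4:**
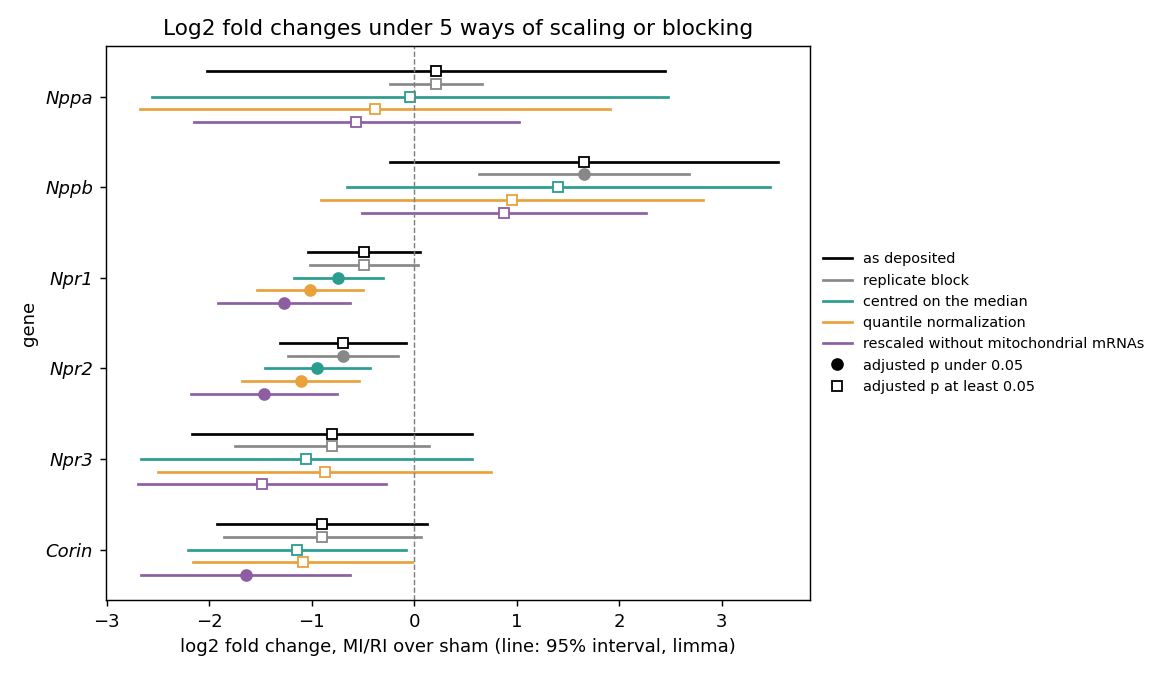
Log2 difference of MI/RI over sham for the 6 tested members under the reported scaling and under other settings, with 95% intervals from limma. The estimates of Npr1, Npr2, Npr3 and Corin stay below 0 in each setting shown, while those of Nppa lie on both sides of 0. Under the reported scaling the intervals of Npr1, Npr3 and Corin include 0, and no member was called.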

How the data were processed

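Total RNA of 6 rat myocardium samples, 3 per group, was sequenced from stranded libraries. The authors deposited 1 table of FPKM values per gene and sample, and the submitters' processing notes name STAR and HTSeq without versions. The genome build, the annotation and the strand setting are not given in the sources used here. No source says whether each sample was 1 animal, so p-values measure the spread between these samples, called rats here. Columns not used numbered 0.

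Rows of 1 symbol were summed. Log2(FPKM + 0.1) of the genes with a mean of at least 0.5 FPKM was fitted with limma 3.58.1 in R 4.3.3 (lmFit, eBayes with trend), adjusted by Benjamini-Hochberg over all genes tested and called at 0.05. Calculations on members used Python 3.11.15 with scipy 1.17.1. Single values and 8 ratios were compared by two-sided exact permutation tests, which cannot go below p = 0.1. The fit was tested on simulated data. Fragments per value are the smallest whole numbers that give the FPKM, and intervals cover counting error only.

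The members and the 15 gene lists were chosen with earlier results of these data known. Named genes are the members, the atrial list, the 2 highest and 2 lowest called genes of the other lists, and the 3 nearest tested genes of each member. Myh7, the endocardial genes, Adipoq, Plin1 and Fabp4 were added after their values were seen, as were the uncalled genes of the peptide processing list. Kdr, Tek, Prkg2, Ptprc, Csf3r, Lyz2 and Cd68 were also added after their values were seen.

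The labels give both groups replicate numbers 1 to 3. Deviations from the group means correlated at 0.203, 0.117 and 0.118 between same-numbered rats over all genes tested, so the number was also fitted as a block. Of the differently numbered pairs, sham replicate 3 with MI/RI replicate 2 reached 0.120 and the others were negative. No source says that a number marks matched rats, so it may be arbitrary, and blocked and same-numbered results depend on it. Other pseudocounts, filters and scalings and the loss of each rat were tried as alternatives.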

Additional observations from a re-analysis of the deposited data

How the results depend on the processing

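Scaling moved the whole table. The median log2 difference of all genes was 0.29 as deposited, 0.48 as TPM, 0.04 after median centring, -0.02 after quantile normalization, -0.46 without the mitochondrial mRNAs and -1.86 on the cardiomyocyte list. The genes called numbered 2790 higher and 805 lower. Quantile normalization gave 1441 and 1559, genes not mitochondrially encoded 793 and 2857, and centring on the cardiomyocyte list 37 and 8814. Lower calls were 1554 after median centring, 504 as TPM and 166 at a mean of 5 FPKM. Of the members 0 were called as deposited, 0 as TPM, 2 with median centring and 2 with quantile normalization. Without the mitochondrial mRNAs 3 were called, and on the cardiomyocyte list 5. As TPM, Npr1 was at -0.30, Npr2 at -0.50, Npr3 at -0.65 and Corin at -0.72, with Nppa at 0.41 and Nppb at 1.85.

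Nppa turned to -0.036, -0.38, -0.56 and -1.93 under median centring, quantile normalization, no mitochondrial mRNAs and the cardiomyocyte list, and Nppb to -0.49 under the last. Nppa passed there (adjusted p = 0.00013, limma). In that fit limma gave each gene's own spread no weight and the SE of Nppa was 0.46 against 1.0 as deposited, while the exact permutation test of the same difference gave p = 0.3, so its calls are weak evidence. Npr1 passed at -0.74, -1.02, -1.26 and -2.64 and Npr2 at -0.94, -1.11, -1.46 and -2.84 in the same order. Corin passed at -1.64 and -3.04 under the last 2, and Npr3 at -2.95 under the last.

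With the replicate block, Nppb (1.66, adjusted p = 0.018, limma) and Npr2 (-0.69, adjusted p = 0.047, limma) passed, so 2 members were called, and no other member's call changed. Each rat correlated best with its own number in 4 of 6 cases.

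Leaving out 1 rat at a time gave -0.87 to 1.27 for Nppa, 0.54 to 2.69 for Nppb, -0.63 to -0.28 for Npr1, -0.90 to -0.44 for Npr2, -1.59 to -0.26 for Npr3, -1.29 to -0.41 for Corin, -0.20 to 0.41 for Nppc, 0 to 2 members called (1, Npr2, without sham replicate 1 and 2, Nppb and Npr3, without MI/RI replicate 3), and 1528 to 2557 genes higher and 309 to 881 lower. Higher calls were 1528 without sham replicate 3, and lower calls 309 without sham replicate 2 and 359 without sham replicate 3. Nppa was -0.16, -0.47 and -0.87 without sham replicate 2, sham replicate 3 and MI/RI replicate 1, and the Nppc log2 difference was -0.20 and -0.034 without sham replicate 3 and MI/RI replicate 1. The ratio of Npr3 to Npr1 ranged from -1.07 to 0.20 (the latter without MI/RI replicate 2), and Nppb against the cardiomyocyte list from -1.38 to 0.42 (the latter without MI/RI replicate 3). The Npr3 to Npr1 ratio was 0.11 with a pseudocount of 1 and 0.15 with quantile normalization. Leaving out replicate 1 of both groups was chosen after seeing the data and gave 0.24 for that ratio and -0.93 for Npr2 (adjusted p = 0.036, limma), with 1 member called. The cause of these changes was not tested.

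With 3 rats per group the exact tests cannot pass, and FPKM are shares of a library.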
